A study of Mus musculus with 8 samples.

Results

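The genes described here are 10 transcripts of the hepatic acute-phase programme in mouse liver: the serum amyloid A genes Saa1, Saa2, Saa3 and Saa4, the orosomucoid genes Orm1, Orm2 and Orm3, lipocalin 2 (Lcn2), haptoglobin (Hp) and the signalling inhibitor Socs3. They were taken by symbol from a table of 55421 transcripts, using for each symbol the row with the highest mean count. All 10 matched a single row, and all 10 were among the 14506 transcripts that passed a filter on low counts. The genes were chosen by their measured levels in these same livers, the ZT6 comparison of sudachitin with control included. Levels and differences of the 10 genes are therefore given as a description. Calls among them are set beside those of all tested genes and are no test of the 10. Bulk RNA sequencing of liver had been used to compare sudachitin, a polymethoxylated flavone of the citrus fruit sudachi, with vehicle. All animals were male C57BL/6J mice bought at 4 weeks of age and kept on a diet with 45% of calories from fat after 4 weeks of acclimation. Control mice received PBS and treated mice 100 mg of sudachitin per kg body weight, by oral gavage every other day between ZT8 and ZT10, and livers were taken at 30 weeks of age. ZT is the zeitgeber time, in hours of the light cycle. The 4 groups, each of 2 mice, were control at ZT6, sudachitin at ZT6, control at ZT18 and sudachitin at ZT18. No mice on a normal diet were included in the groups compared, so every group shares the high-fat diet and the gavage. With gavage between ZT8 and ZT10, livers of the 2 times also differ in hours since the last gavage. That cannot be told apart from the time of day. Nothing in the labels beyond the sample titles ties a replicate to a separate animal, and p-values measure only the spread between these samples.

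The acute-phase response is the change in plasma proteins made by the liver during infection, injury or inflammation. Interleukin-6 and related cytokines act through the receptor subunit gp130 (Il6st) and STAT3, and interleukin-1 and tumour necrosis factor act through NF-kappaB, while C/EBP factors bind the promoters of many acute-phase genes in hepatocytes. SAA1 and SAA2 are the inducible apolipoproteins carried on high-density lipoprotein, SAA4 is the constitutive form, and SAA3 is made in large part by macrophages and adipose tissue. Orosomucoids are lipid- and drug-binding plasma glycoproteins, haptoglobin binds free haemoglobin, lipocalin-2 binds bacterial iron carriers, and SOCS3 is induced by STAT3 and shuts off gp130 signalling.

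Most of these genes lie in a pair of clusters, for which the deposited coordinates are on GRCm38 (mm10). On chromosome 7, Saa3 (chr7:46711998-46715700), Saa4 (chr7:46727998-46732603) and Saa1 (chr7:46740497-46742980) are on the minus strand and Saa2 (chr7:46751790-46754313) is on the plus strand. On chromosome 4, Orm1 (chr4:63344560-63348163), Orm3 (chr4:63356162-63359511) and Orm2 (chr4:63362449-63365878) follow each other on the plus strand. Lcn2 lies at chr2:32384633-32387797, Hp at chr8:109575128-109579172 and Socs3 at chr11:117966079-117969186, all on the minus strand. No exon of the 10 genes overlaps an exon of another gene in GENCODE. Copies within a cluster are similar in sequence: the Saa1 and Saa2 transcripts share 94.4% of their aligned bases, Orm1 and Orm2 91.0%, Orm2 and Orm3 88.5%, and Orm1 and Orm3 86.5%. The longest identical run was 76 bases for Saa1 and Saa2 and 141 bases for Orm1 and Orm2, and no stretch of 150 bases, the length of 1 read, was identical in any pair. The sources used here do not say how reads with several positions were counted, so the split between copies carries that uncertainty.

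Promoters of 8 of the 10 genes were in the RefSeq table used here (GRCm38.p6), each a window of 250 bases before to 50 bases after the RefSeq start. The 2 serum amyloid genes with the widest range of levels have near-identical promoters, 96.0% of aligned bases, and are shown because their levels varied together. The first 200 bases of the window are given 5′ to 3′ on the strand of the gene, for Saa1 at chr7:46743031-46743230 (minus strand) and for Saa2 at chr7:46751583-46751782 (plus strand). Capitals mark matches to TTGCNCAA, a core bound by C/EBP factors, and to the NF-kappaB consensus.
Saa1: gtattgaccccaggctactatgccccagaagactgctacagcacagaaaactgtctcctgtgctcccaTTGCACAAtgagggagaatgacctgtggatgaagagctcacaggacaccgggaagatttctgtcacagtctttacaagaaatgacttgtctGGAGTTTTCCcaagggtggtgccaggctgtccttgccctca
Saa2: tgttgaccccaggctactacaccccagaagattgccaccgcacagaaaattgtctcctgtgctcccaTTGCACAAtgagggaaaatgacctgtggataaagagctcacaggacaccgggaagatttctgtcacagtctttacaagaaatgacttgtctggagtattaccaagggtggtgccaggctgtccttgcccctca
Saa1 has TTGCACAA beginning 182 bases before the start and the NF-kappaB match beginning 91 bases before it. Saa2 has the same TTGCACAA at 183 bases and no match to the NF-kappaB consensus in the window.

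Orm2 and Orm3 are shown as the other pair of similar promoters (89.2% of aligned bases); their highest livers differed, sudachitin ZT6 replicate 1 for Orm2 and control ZT18 replicate 1 for Orm3. The lines give chr4:63362199-63362398 and chr4:63355908-63356107, both on the plus strand, with the same marking.
Orm2: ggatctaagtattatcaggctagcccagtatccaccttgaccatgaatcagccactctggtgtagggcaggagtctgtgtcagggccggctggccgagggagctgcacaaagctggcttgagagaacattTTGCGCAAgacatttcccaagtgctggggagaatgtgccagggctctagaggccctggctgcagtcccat
Orm3: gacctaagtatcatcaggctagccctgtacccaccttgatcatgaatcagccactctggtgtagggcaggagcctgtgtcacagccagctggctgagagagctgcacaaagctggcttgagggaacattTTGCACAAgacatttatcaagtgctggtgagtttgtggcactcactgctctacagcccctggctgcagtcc
Orm2 carries the full palindrome TTGCGCAA 120 bases before its start, and Orm3 carries TTGCACAA at 121 bases. Searched on both strands, TTGCNCAA was found in 6 of the 8 promoters (Saa1, Saa2, Saa4, Orm2, Orm3 and Lcn2) and in 2.94% of all 32851 promoters of the table. The 6 are not independent, since Saa1 and Saa2, and Orm2 and Orm3, are pairs of similar promoters. The palindrome TTGCGCAA, which is contained in TTGCNCAA, was found in 1 of the 8 and in 0.183% of all. The NF-kappaB consensus was found in 2 of the 8 (Saa1 and Lcn2) and in 11.2% of all, and the STAT core TTCNNNGAA in 1 of the 8 (Socs3) and in 8.3% of all. These searches were chosen after the promoters had been read, and a match describes letters in the window.

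Libraries held 13914116 to 17759630.5 counts in exons, and the 10 genes took 0.313% to 0.631% of them. Of the 8 libraries, control ZT18 replicate 1 stood apart: in 38.2% of tested genes it held the extreme value among all 8, against 17.4% to 27.7% for the others. Hepatocyte markers, 8 genes that include Alb and Apob, summed to 87607 to 106826 CPM, counts scaled to library size, in the 8 livers, and none was at 0. Most of each sum was Alb, at 58075 to 78520 CPM. Serpina1c (2071 CPM), Cps1 (1733), Ass1 (2179) and Tat (550) were each lowest of the 8 livers in control ZT18 replicate 1. Ttr was highest in that liver, and Alb, Apob and Cyp2e1 were at neither end there. Code letters and digits in the sample titles begin alike for both control ZT6 mice and alike, with another code, for both sudachitin ZT6 mice. What these codes stand for is unknown, and at ZT6 they cannot be told apart from treatment.

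Levels can be compared between genes only per length, as FPKM, in which a count is divided by exon length and library total. Averaged over the 8 livers, Hp was the most abundant of the 10 at 1126 ± 270 FPKM (SD, n = 8), followed by Orm1 at 362 ± 95.8. Saa1 averaged 120 ± 157, Saa2 70.7 ± 99.5 and Saa4 54.7 ± 8.73 FPKM, and Orm2 11.6 ± 11.2. Lcn2 averaged 8.54 ± 7.17 FPKM, Saa3 2.53 ± 1.25, Orm3 1.54 ± 1.35 and Socs3 0.999 ± 0.447. The SD includes the differences between groups. Hp was above the other 9 in every liver, with no overlap of their ranges, whereas Orm1 (236 to 531) overlapped with Saa1. Saa1 ranged from 13.9 to 459 FPKM and Saa2 from 4.77 to 291, so neither is separate from Saa4 (41.7 to 67.8) in that order. Orm2 and Lcn2 likewise overlapped with each other, as did Saa3, Orm3 and Socs3.

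The order among the serum amyloid genes depended on the liver. Saa1 stood at 0.398 and 0.239 times the FPKM of the constitutive Saa4 in control ZT6 livers and at 8.06 and 4.45 times in sudachitin ZT6 livers. At ZT18 the same ratio was 1.31 and 0.333 in control and 1.67 and 0.532 in sudachitin livers. Saa1 was thus above Saa4 in 4 livers, both sudachitin ZT6 livers and replicate 1 of each ZT18 group. Orm2 amounted to 5.66% and 5.77% of the FPKM of Orm1 in sudachitin ZT6 livers, to 4.89% in control ZT18 replicate 1 and to between 1.01% and 1.53% in the other 5. Together, Saa1 and Saa2 took from 0.00251% of exon counts in a control ZT6 liver to 0.101% in a sudachitin ZT6 liver.

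Ranges over the 8 livers set the genes apart from one another. The ratio of the highest to the lowest CPM was 62.2 for Saa2, 32.7 for Saa1, 12.7 for Orm2 and 10.4 for Lcn2. It was 9.46 for Orm3, 4.51 for Saa3, 4.03 for Socs3, 2.30 for Orm1 and 1.67 for both Hp and Saa4. The median of the 10 genes was 6.99, beside 1.63 over all tested genes. A range over 10-fold was found for 40% of the 10 genes and 2.20% of tested genes.

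The first comparison was of treated with control livers at ZT6. Both sudachitin livers had more Saa1 and Saa2 mRNA than both controls, by log2 differences of 4.49 (SE 0.84) and 5.08 (SE 0.92) in the edgeR fit, which are 22.5-fold and 33.8-fold. Orm2 differed 9.76-fold, Lcn2 7.96-fold, Orm1 1.82-fold and Socs3 1.76-fold in the same direction. Saa4, the constitutive form, overlapped between the groups. In bulk tissue, fewer cells of a type and less RNA per cell cannot be told apart.

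Saa1 stood at 21.9 and 18.3 CPM in control ZT6 livers, 599 and 306 in sudachitin ZT6, 93.5 and 18.9 in control ZT18 and 153 and 42.5 in sudachitin ZT18. Saa2 stood at 11.1 and 6.54 CPM in control ZT6, 406 and 188 in sudachitin ZT6, 63.6 and 16.6 in control ZT18 and 79.6 and 15.4 in sudachitin ZT18 livers. Both genes were highest in the sudachitin ZT6 livers, with no overlap with any other group, and at ZT18 their 2 treatment groups overlapped. Saa4 stood at 190 and 264 CPM in control ZT6, 257 and 237 in sudachitin ZT6, 247 and 196 in control ZT18 and 316 and 275 in sudachitin ZT18 livers. Its ZT6 difference was 0.12 (SE 0.19) on the log2 scale, and its highest pair of livers was sudachitin ZT18. Saa3 was low throughout, at 2.88 and 1.76 CPM in control ZT6, 3.07 and 3.41 in sudachitin ZT6, 5.30 and 1.83 in control ZT18 and 4.68 and 1.17 in sudachitin ZT18 livers. Its ZT6 difference was 0.49 (SE 0.66), smaller than its SE, and both its highest and its lowest liver were at ZT18.

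The orosomucoid genes differed in size of response. Orm1, the main form in these livers, stood at 504 and 384 CPM in control ZT6, 881 and 733 in sudachitin ZT6, 546 and 493 in control ZT18 and 689 and 594 in sudachitin ZT18. Its 4 treated livers were all above its 4 controls, a pattern whose share of tested genes was not counted. Orm2 stood at 5.54 and 3.92 CPM in control ZT6, 49.8 and 42.3 in sudachitin ZT6, 26.7 and 5.76 in control ZT18 and 10.6 and 7.63 in sudachitin ZT18. Orm2 was low in 5 livers, and control ZT18 replicate 1 lay between those and the sudachitin ZT6 pair. Orm3 stood at 1.37 and 0.784 CPM in control ZT6, 1.78 and 3.41 in sudachitin ZT6, 7.42 and 2.32 in control ZT18 and 1.30 and 1.997 in sudachitin ZT18. The ZT6 log2 differences were 0.86 (SE 0.17) for Orm1, 3.29 (SE 0.59) for Orm2 and 1.27 (SE 0.63) for Orm3. Orm3 was highest in control ZT18 replicate 1, unlike Orm1 and Orm2, which were highest in a sudachitin ZT6 liver.

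Lcn2 stood at 4.61 and 3.59 CPM in control ZT6, 37.3 and 27.9 in sudachitin ZT6, 29.0 and 4.78 in control ZT18 and 21.6 and 4.46 in sudachitin ZT18 livers. Its levels fell into a low and a high set, with replicate 1 of each ZT18 group near the sudachitin ZT6 livers and replicate 2 near the control ZT6 livers. Hp stood at 2885 and 2575 CPM in control ZT6, 4066 and 3505 in sudachitin ZT6, 4061 and 2432 in control ZT18 and 4028 and 2506 in sudachitin ZT18. Hp had the same division of livers in a much smaller range. Socs3 stood at 4.25 and 5.29 CPM in control ZT6, 7.81 and 9.07 in sudachitin ZT6, 3.01 and 2.25 in control ZT18 and 7.59 and 4.87 in sudachitin ZT18. The treated livers were above the controls of the same time at both times for Socs3. The share of tested genes with that pattern was not counted, so nothing is read from it. The ZT6 log2 differences were 2.99 (SE 0.87) for Lcn2, 0.47 (SE 0.28) for Hp and 0.82 (SE 0.27) for Socs3.

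**Figure D1:**
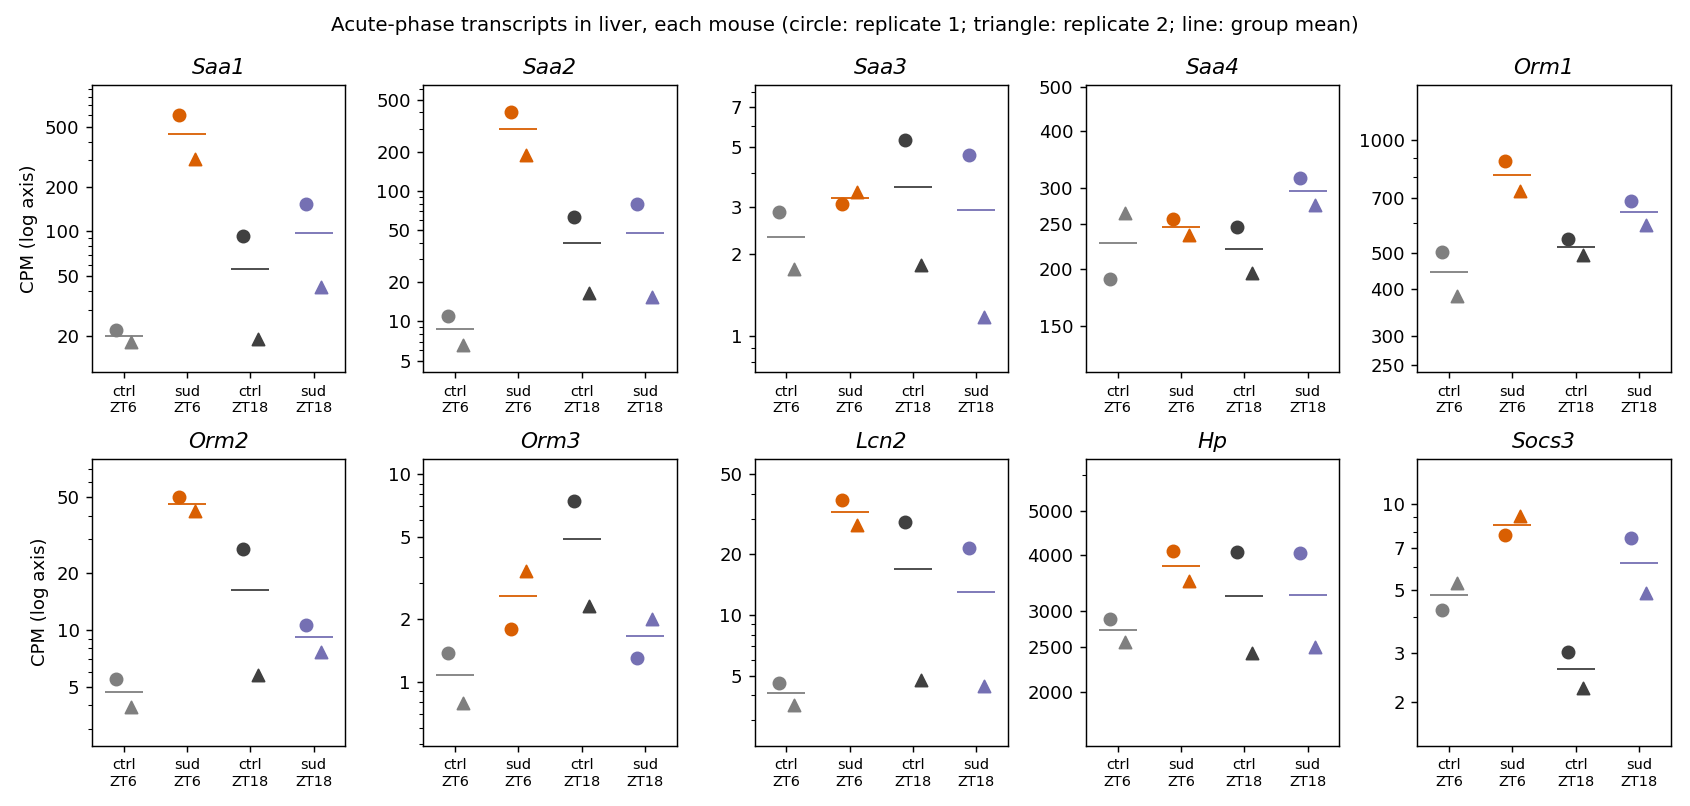
CPM of the 10 genes (log axes, a scale for each gene) in each of the 8 livers by group, with a circle for replicate 1, a triangle for replicate 2 and a line at the group mean. Saa1 and Saa2 are highest in both sudachitin ZT6 livers, and Saa1, Saa2, Saa3, Lcn2 and Hp are well apart between the 2 livers of each ZT18 group.

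At ZT6, 9 of the 10 genes were higher in both sudachitin livers than in both controls, Saa4 being the exception, where 15.4% of tested genes were higher and 16.3% lower without overlap. Log2 differences above 1 were found for 5 of the 10 genes and 1.04% of tested genes. The median log2 difference was 1.07 for the 10 genes and -0.01 over all tested genes. None of the 10 reached an adjusted p under 0.05 in edgeR's quasi-likelihood test, where 0% of tested genes did. DESeq2 called 4 (Saa1, Saa2, Orm1 and Orm2) among 9 genes in all, and limma on log2 FPKM called 0. Because this contrast was known when the genes were picked, an excess of the 10 over tested genes was built in by the choice. These counts are set side by side and nothing is read from them.

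The number called at ZT6 changed with the setting. With only the ZT6 livers in the fit, 4 of the 10 were called (Saa1, Saa2, Orm2 and Lcn2) among 10 genes in all, and with no filter on low counts 5 (the same 4 and Orm1) among 67. Leaving out either control ZT18 liver called 1, Orm2, among 3. Log2 differences at ZT6 were above 0 in every alternative run for 9 of the 10 genes, and Saa4 was at -0.10 without control ZT6 replicate 1.

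At ZT18 most of the 10 genes overlapped between treated and control livers. Saa4, Orm1 and Socs3 were higher in both sudachitin livers than in both controls, by log2 differences of 0.42 (SE 0.19), 0.30 (SE 0.17) and 1.23 (SE 0.28). Orm3 was lower in both, by a log2 difference of -1.57 (SE 0.56). The other 6 overlapped, at 0.79 (SE 0.73) for Saa1, 0.24 (SE 0.77) for Saa2, -0.30 (SE 0.63) for Saa3, -0.85 (SE 0.55) for Orm2, -0.39 (SE 0.78) for Lcn2 and 0.01 (SE 0.28) for Hp. For Saa2, Saa3, Lcn2 and Hp these differences were smaller than their SE.

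These counts of 3 higher and 1 lower without overlap stand beside 15.3% and 15.5% of tested genes. edgeR called none of the 10 at an adjusted p under 0.05, beside 0.0138% of tested genes, and 2 of the 10 had an unadjusted p under 0.05, beside 6.51%. DESeq2 and limma called 0. The median log2 difference was 0.12 for the 10 genes and -0.00 over all tested genes. It was 0.67 without control ZT18 replicate 1 and -0.76 without sudachitin ZT18 replicate 1. Without control ZT18 replicate 1, Lcn2 was at 1.45 and Orm2 at 0.66, above 0 in place of below. Without sudachitin ZT18 replicate 1, Saa1 was at -0.41, Saa2 at -1.39 and Hp at -0.38, and without control ZT18 replicate 1 Saa3 was at 0.68. The ZT18 direction of these 6 genes therefore changed with a single liver.

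**Figure D2:**
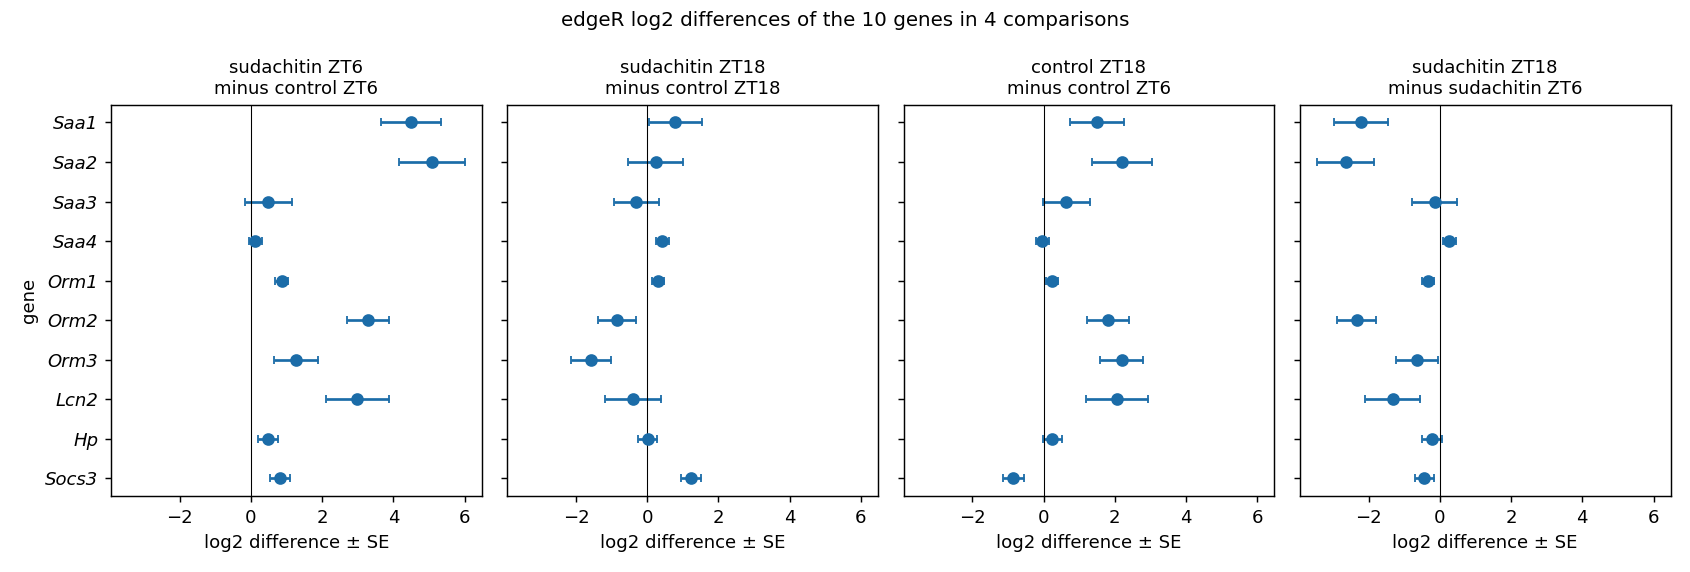
Log2 differences from the edgeR fit (points) with their SE (bars) for the 10 genes in 4 comparisons, on a common axis with a line at 0. At ZT6 the differences run from 0.12 for Saa4 to 5.08 for Saa2, and at ZT18 from -1.57 for Orm3 to 1.23 for Socs3.

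Between the times, control livers and sudachitin livers are described side by side, since each time comparison shares its livers with the treatment comparisons. In control livers the log2 difference of ZT18 from ZT6 was 1.49 (SE 0.76) for Saa1, 2.20 (SE 0.84) for Saa2, 1.80 (SE 0.59) for Orm2, 2.20 (SE 0.61) for Orm3 and 2.06 (SE 0.87) for Lcn2. Without control ZT18 replicate 1 they were -0.10 for Saa1, 0.91 for Saa2, 0.28 for Orm2, 1.10 for Orm3 and 0.22 for Lcn2. In sudachitin livers the differences were -2.21 (SE 0.75) for Saa1, -2.65 (SE 0.81) for Saa2, -2.34 (SE 0.55) for Orm2, -0.64 (SE 0.59) for Orm3 and -1.33 (SE 0.78) for Lcn2. The 5 genes with log2 differences above 1 in control livers, which 3.61% of tested genes had, were all below 0 in sudachitin livers. The ZT6 contrast was known when the genes were picked, and it bears on both of these time differences. The share of tested genes with this pair of signs was not counted, so nothing is read from the pattern. Socs3 was lower at ZT18 in both, by -0.85 (SE 0.29) in control and -0.44 (SE 0.26) in sudachitin livers. Hp and Orm1 differed little, at 0.25 (SE 0.28) and 0.23 (SE 0.17) in control and -0.21 (SE 0.28) and -0.33 (SE 0.17) in sudachitin livers.

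In control livers, 4 of the 10 genes were higher at ZT18 without overlap (Saa2, Orm2, Orm3 and Lcn2), beside 21.3% of tested genes, and 1 was lower (Socs3), beside 21.1%. In sudachitin livers, 6 were lower without overlap (Saa1, Saa2, Orm1, Orm2, Lcn2 and Socs3), beside 22.3%, and 1 was higher (Saa4), beside 23.5%. edgeR called none of the 10 in either comparison, where it called 0.524% of tested genes in control and 0.186% in sudachitin livers. At an unadjusted p under 0.05 there were 5 of the 10 in control livers, beside 12.9% of tested genes, and 3 in sudachitin livers, beside 12.6%. DESeq2 called 1 in control livers (Orm3) among 262 genes in all, and 0 in sudachitin livers among 274. Both comparisons use ZT6 livers whose levels were known when the genes were picked, so nothing is read from these counts. The median of the 10 genes was 1.07 in control livers, beside 0.02 over tested genes, and was 0.02 without control ZT18 replicate 1, where Saa3 was at -0.35 and Hp at -0.18. In sudachitin livers it was -0.54, beside 0.01 over tested genes, and it was between -1.13 and -0.40 when any 1 library was left out.

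The difference between the treatment effects at the 2 times was fitted as an interaction and is given as a description. The treatment difference at ZT18 was below that at ZT6 for 8 of the 10 genes, as for 50.5% of tested genes, by -3.70 (SE 1.07) for Saa1, -4.84 (SE 1.17) for Saa2, -4.14 (SE 0.80) for Orm2, -3.39 (SE 1.17) for Lcn2 and -2.84 (SE 0.84) for Orm3. It was above that at ZT6 for Saa4 at 0.30 (SE 0.26) and Socs3 at 0.41 (SE 0.39). edgeR called none of the 10, beside 0% of tested genes, and DESeq2 called 0. At an unadjusted p under 0.05 there were 6 of the 10 genes, beside 3.78% of tested genes. The interaction is built from the same ZT6 contrast that was known when the genes were picked. Without control ZT18 replicate 1 the median interaction of the 10 genes was -1.02 in place of -1.82.

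Mice of the same ZT18 group were far apart in several of the genes. Lcn2 was 6.07 times as high in control ZT18 replicate 1 as in replicate 2 and 4.83 times as high in sudachitin ZT18 replicate 1 as in replicate 2. The corresponding ratios were 4.95 and 3.60 for Saa1, 3.83 and 5.17 for Saa2, and 2.90 and 3.99 for Saa3. Hp, at 1.67 and 1.61, had the same direction in a smaller range. Orm2 differed 4.64-fold in the control group and 1.39-fold in the sudachitin group, and Orm3 3.20-fold in control and 0.653-fold in sudachitin. Socs3 differed 1.34-fold and 1.56-fold, Saa4 1.26-fold and 1.15-fold, and Orm1 1.11-fold and 1.16-fold.

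In 9 of the 10 genes replicate 1 was above replicate 2 in both ZT18 groups, as in 28.8% of tested genes, and Orm3 in sudachitin livers was the exception. The median ratio of the higher to the lower liver was 3.05 in control ZT18 and 1.58 in sudachitin ZT18 for the 10 genes, beside 1.21 and 1.17 over tested genes. It was 1.35 in control ZT6 and 1.19 in sudachitin ZT6, beside 1.14 in each over tested genes. For 6 of the 10 genes (Saa1, Saa2, Saa3, Orm2, Lcn2 and Hp) the same 4 livers were the highest, namely both sudachitin ZT6 livers and replicate 1 of each ZT18 group. That pattern held for 201 tested genes, 1.39%, and was chosen for counting after these values were seen. The 2 ZT18 livers of a group carry title codes with different beginnings, and whether these mark a cage, a day or a mouse is not given in the sources used here.

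A search over the other 12372 tested genes, leaving out predicted genes and transcripts with no symbol, named the 10 whose log2 CPM over the 8 livers was most like the mean standardized level of the acute-phase genes. Hemopexin (Hpx), a haem-binding plasma protein, came first with Pearson's r = 0.96 and Spearman's rho = 0.81 over 8 libraries, which share depth and group structure, and r was at least 0.94 with any 1 library left out. Hpx stood at 2868 and 2502 CPM in control ZT6, 4293 and 3860 in sudachitin ZT6, 4137 and 2656 in control ZT18 and 4307 and 2597 in sudachitin ZT18. The same 4 livers were the highest as for Hp. After Hpx came Phc2 (r = 0.93), Fam49a, Pm20d2 and Hmmr (0.90 each), Eif4ebp1, Ppp1cc, Suds3 and the macrophage gene Mpeg1 (0.89 each) and Pigg (0.88). These values describe 8 libraries and carry no p. The genes were taken as the highest r among 12372 candidates, so high values are in part a result of the search. The search was not repeated with a library left out.

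**Figure D3:**
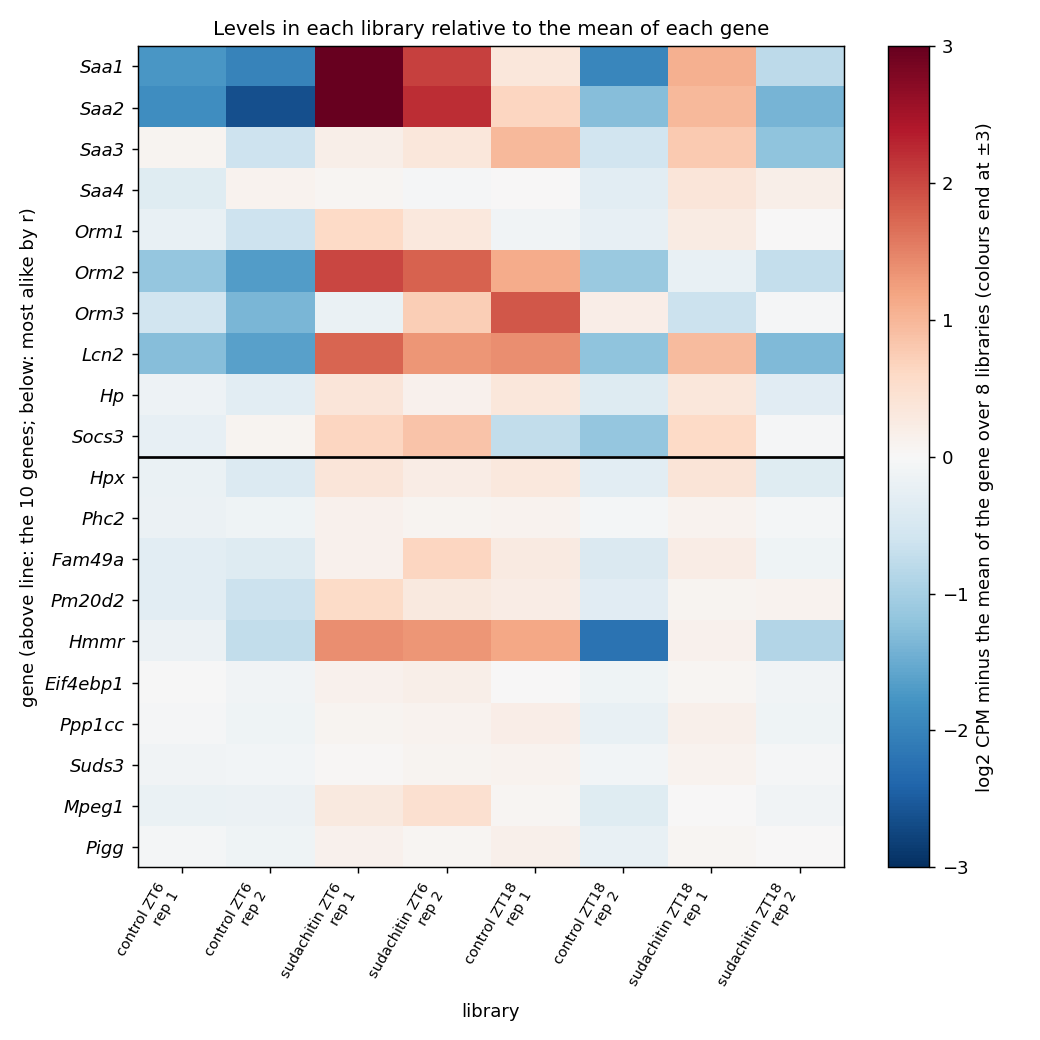
Log2 CPM of each gene minus its mean over the 8 livers, for the 10 acute-phase genes (above the line) and the 10 genes most like their mean profile (below it), with a column for each library; red is above and blue below the mean of the gene, and colours end at 3 log2 units either way. Both sudachitin ZT6 columns and replicate 1 of each ZT18 group are red for Saa1, Saa2, Lcn2 and Hpx.

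The rest of the pathway was described from lists of 104 symbols, 94 of them tested. In none of the 5 comparisons did edgeR call any of the 94 at an adjusted p under 0.05. At ZT6, 7 of the 94 had an unadjusted p under 0.05, beside 2.12% of tested genes, and DESeq2 called 0. At ZT18, 28 of the 94 did, beside 6.51%, and DESeq2 called 1 of its 49 genes there. Counts of genes above 0 below are therefore signs, not calls.

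Of 10 cytokine genes 4 were tested, and Il6, Tnf, Osm, Lif, Il11 and Il22 did not pass the filter. Ctf1, which encodes cardiotrophin 1, stood at 5.25 and 5.88 CPM in control ZT6 and 6.21 and 4.84 in sudachitin ZT6 livers, overlapping between the groups. Interleukin-1 beta (Il1b) stood at 0.720 and 0.0654 CPM in control ZT6 and 0.0615 and 0.273 in sudachitin ZT6 livers, levels of a few counts. Receptor and signalling genes were split at ZT6, with 12 of 25 above 0, beside 48.8% of tested genes, and a median of -0.01. At ZT18 23 of 25 were above 0, beside 49.6% of tested genes, with a median of 0.24. The interleukin-1 receptor Il1r1 stood at 15.8 and 21.3 CPM in control ZT6, 30.2 and 25.4 in sudachitin ZT6, 16.7 and 20.2 in control ZT18 and 34.6 and 33.9 in sudachitin ZT18 livers. The interleukin-6 receptor Il6ra stood at 12.7 and 15.1 CPM in control ZT6, 21.5 and 18.8 in sudachitin ZT6, 21.0 and 16.3 in control ZT18 and 28.7 and 24.1 in sudachitin ZT18 livers. For both receptors the treated livers were above the controls of the same time at both times, at ZT6 by 0.58 (SE 0.17) and 0.54 (SE 0.17). They were named for their small ZT6 p, as the 2 of the 25 with an unadjusted edgeR p under 0.05, beside 2.12% of tested genes. Of tested genes, 15.4% were higher without overlap at ZT6 and 15.3% at ZT18, and the share at both times was not counted. At ZT6 Il6st was at -0.16, the liver factor Hnf4a at 0.25 and Cebpa, which encodes C/EBP alpha, at 0.03. At ZT18 Il6st was at 0.28, Hnf4a at 0.22 and Cebpa at 0.24.

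Feedback inhibitors other than Socs3 had 8 of 17 above 0 at ZT6, beside 48.8% of tested genes, with a median of -0.02. Socs2, a target of growth hormone signalling, lay on the other side of 0 from Socs3 at ZT6, at 26.7 and 9.61 CPM in control and 1.35 and 12.9 in sudachitin livers, a log2 difference of -1.36 (SE 0.77) with overlapping groups. Its 2 sudachitin ZT6 livers were far apart from each other. At ZT18 Socs2 was on the same side of 0 as Socs3, at 5.69 and 3.51 CPM in control and 26.2 and 27.2 in sudachitin livers. That was a log2 difference of 2.52 (SE 0.79) without overlap, and 15.3% of tested genes were higher without overlap there.

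Other proteins known to increase in the acute phase had 30 of 35 genes above 0 at ZT6, beside 48.8% of tested genes, with a median of 0.16. At ZT18 25 of 35 were above 0, beside 49.6%, with a median of 0.21. The widest ZT6 difference among those named was that of Fgl1, a fibrinogen-like protein secreted by hepatocytes, at 141 and 105 CPM in control ZT6, 413 and 373 in sudachitin ZT6, 112 and 144 in control ZT18 and 430 and 151 in sudachitin ZT18 livers. Fgl1 differed by 1.67 (SE 0.41) at ZT6 without overlap, and at ZT18 a single liver, sudachitin replicate 1, was high. The inter-alpha-trypsin inhibitor heavy chains Itih3 and Itih4 were at 0.50 and 0.48, the interleukin-18 binding protein Il18bp at 0.70, complement C3 at 0.15 and Serpina3k at -0.05. Of the 35 genes, Hpx, Cfb and Lbp had the same 4 livers highest as the 6 genes above. Proteins known to decrease in the acute phase had 6 of 14 above 0 at ZT6, beside 48.8% of tested genes, with a median of -0.01. Albumin (Alb) was at -0.15, transferrin (Trf) at 0.01 and the vitamin D binding protein Gc at 0.12.

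**Figure D4:**
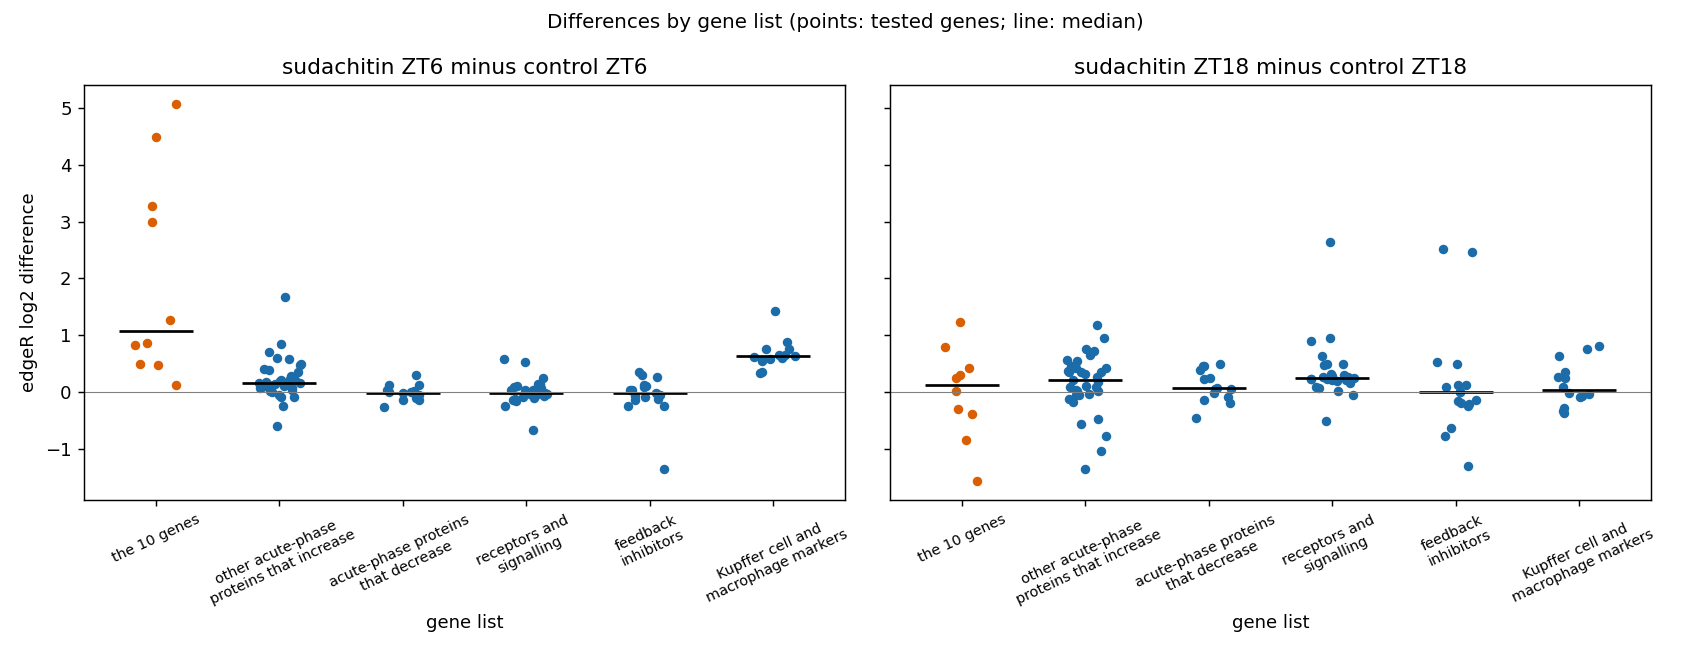
edgeR log2 differences of sudachitin from control livers at ZT6 (left) and ZT18 (right) for each tested gene of 6 lists, with a line at the median of the list. At ZT6 the medians are 1.07 for the 10 genes, 0.16 for other acute-phase proteins that increase and 0.62 for Kupffer cell and macrophage markers.

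Markers of other cells were read beside these values. All 14 Kupffer cell and macrophage markers were above 0 at ZT6, as were 48.8% of tested genes, with a median of 0.62. edgeR called none of them, and 4 had an unadjusted p under 0.05, beside 2.12% of tested genes. Their summed level was 174 and 204 CPM in control ZT6, 228 and 356 in sudachitin ZT6, 281 and 163 in control ZT18 and 238 and 218 in sudachitin ZT18 livers, with none of the 14 at 0. The sum was higher in both sudachitin ZT6 livers than in both controls. It was also higher in replicate 1 than in replicate 2 of each ZT18 group, a direction found in 28.8% of tested genes. In sudachitin ZT18 livers the 2 sums were close, at 238 and 218 CPM, where Saa1 differed 3.60-fold and Lcn2 4.83-fold. The higher level in replicate 1 did not hold for each marker in these livers. Clec4f (42.8 in replicate 1 and 50.3 in replicate 2), Timd4, Cd5l, Cd163 and Folr2 were lower in replicate 1. The other markers were higher there, Lyz2 at 31.2 and 16.5. Within the sudachitin ZT6 group the order of the sums was the reverse of that of Saa1, Saa2 and Lcn2. The part of these cells in the acute-phase levels was not tested.

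The 12 neutrophil markers summed to 3.53 and 2.42 CPM in control ZT6 livers, to 3.995 and 3.89 in sudachitin ZT6 and to between 2.96 and 3.65 at ZT18. Between 3 and 6 of the 12 were at 0 in each library, Ngp and Camp among them in both sudachitin ZT6 livers. Adipocyte markers summed to 13.5 and 9.35 CPM in control ZT6 and to 2.34 and 2.52 in sudachitin ZT6 livers, nearly all of it Cfd. Adipoq, Lep, Plin1 and Retn were at 0 in both sudachitin ZT6 livers and in control ZT6 replicate 1. Cholangiocyte markers summed to 76.4 and 45.9 CPM in control ZT18 and 62.2 and 32.8 in sudachitin ZT18 livers, of which Spp1 made up 66.7 and 32.9 in control and 50.6 and 22.5 in sudachitin livers. In control ZT18 livers the other 5 of these 6 markers were each lower in replicate 1 than in replicate 2. Their part in the levels of the 10 genes was not tested.

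Genes next to the clusters were read as neighbours. Beside the serum amyloid cluster, Saal1 was at a ZT6 log2 difference of 0.53 (SE 0.26) and Hps5 at 0.05 (SE 0.19). Beside the orosomucoid cluster, Col27a1 was at -0.28 (SE 0.67) and Akna at -0.11 (SE 0.36). At an adjusted p under 0.05 edgeR called 0% of tested genes at ZT6, so neither these 4 neighbours nor the 7 genes inside the clusters are set apart by calls. The 7 ran from 0.12 (Saa4) and 0.49 (Saa3) to 5.08 (Saa2).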

How the data were processed

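Bulk liver RNA sequencing of 8 mice in 4 groups was used. Libraries were made from 2 µg of RNA (integrity number above 9.0) by poly(A) selection, kept no strand information and were read as pairs of 150 bases, per the labels' protocols. Trimmomatic 0.39, STAR 2.7.2a and HOMER are named in the submitters' processing notes, without their roles. The deposited estimated counts are exon counts per transcript on mm10 (per the file headers) and come in steps of 0.5; they were rounded to whole numbers, 0.5 upwards. The deposited FPKM values of the authors equal the count divided by exon length and header total, within 4.4e-11. Exon counts were 43.6% to 47.8% of header totals. Both livers of each group differed beyond sampling noise; chi-square divided by its degrees of freedom came to 16.3 in control ZT6, 18.9 in sudachitin ZT6, 56.8 in control ZT18 and 26.4 in sudachitin ZT18.

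The test on counts was edgeR 4.0.16 under R 4.3.3 (TMM, default filter on low counts, quasi-likelihood F test on 4 group means, all 8 libraries, Benjamini-Hochberg adjustment over 14506 transcripts, threshold 0.05). The SE is the log2 difference divided by the square root of F. CPM are TMM-scaled. The fit was tested on simulated data. Members and gene lists were chosen with earlier results of these data known. The genes named are the 10 members and, in each pathway list, any gene called, 4 with the smallest ZT6 p and 2 with the highest level, from which examples are given; Hpx, Cfb, Lbp, the untested cytokines and the neighbouring genes were added by symbol or position. Alternatives used DESeq2 1.42.0, limma 3.58.1 on log2(FPKM + 0.1) or log2(FPKM + 1), other filters and scaling, fewer groups, a replicate block and each library left out.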

Additional observations from a re-analysis of the deposited data

How the results depend on the processing

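With 2 mice per group, an exact permutation test of 1 gene cannot reach 0.05, and Saa3, Orm3 and Socs3 rest on few counts. Of 1191 differences of single genes under the alternatives, 1065 stayed within their SE and on their side of the threshold, 80 moved by more than their SE and 46 came to pass it, 25 of these with no filter on low counts. The cause was not tested.

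The number of tested genes called at ZT6 (0 as reported) was 9 with DESeq2, 67 with no filter on low counts, 10 with only the groups compared and 0 to 3 with 1 library left out. Of the acute-phase genes, 4, 5, 4 and 0 to 1 were called under the same alternatives. At ZT18 the count of all genes (2 as reported) was 49 with DESeq2, 488 with no filter, 0 with only the groups compared or with limma at either pseudocount, and 0 to 194 with 1 library left out, of the acute-phase genes 4 with no filter and 0 to 1 with 1 library left out. Between times in control livers (76) it was 262 with DESeq2, 881 with no filter, 4 with only the groups compared, 41 with limma at either pseudocount and 5 to 323 with 1 library left out, of the acute-phase genes 1 with DESeq2, 5 with no filter and 0 to 2 with 1 library left out. Between times in sudachitin livers (27) it was 274 with DESeq2, 861 with no filter, 53 with only the groups compared and 1 to 185 with 1 library left out, of the acute-phase genes 4 with no filter, 1 with only the groups compared and 0 to 1 with 1 library left out. For the interaction (0) it was 14 with DESeq2, 259 with no filter and 0 to 13 with 1 library left out, of the acute-phase genes 5 with no filter and 0 to 1 with 1 library left out. The highest of each of these ranges came without control ZT18 replicate 1 or replicate 2.

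Pathway genes called (0 in each comparison) were 4 with no filter and 1 with only the groups compared at ZT6, and 1 with DESeq2, 17 with no filter and 0 to 2 with 1 library left out at ZT18. Between times they were 5 with DESeq2, 14 with no filter and 0 to 2 with 1 library left out in control livers, and 2 with DESeq2, 11 with no filter and 1 with only the groups compared in sudachitin livers. For the interaction 7 were called with no filter. The median difference of the acute-phase genes at ZT6 was 1.93 with the stricter minimum of 5 CPM in 2 libraries, which leaves out the lowest genes. Its range with 1 library left out was -0.76 to 0.67 at ZT18, 0.023 to 1.71 between times in control livers and -2.39 to -1.02 for the interaction, where limma on log2(FPKM + 1) gave -1.09.

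Correlations of deviations between same-numbered livers ran from -0.20 for sudachitin ZT6 and control ZT18 to 0.28 for control ZT18 and sudachitin ZT18. Each group gives only a single contrast between its mice per gene, so these correlations cannot show whether the numbers pair the mice. With the replicate block, 1 gene was called at ZT6 and it was Saa2, 0 at ZT18, 43 between times in control livers, of which 1 was a pathway gene, and 1 acute-phase gene (Saa2) between times in sudachitin livers.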
